A study of Mus musculus with 20 samples.

Results

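Hearts that had lost Acsl1 and were also given rapamycin were compared with hearts that had neither change. The comparison used 10 of the 20 libraries of the series, taken by their titles: 5 Acsl1H-/-_Rapamycin libraries (called knockout rapamycin) and 5 Acsl1flox/flox_Vehicle libraries (control vehicle). All 13548 of 21705 genes whose value reached 10 in 5 or more of the 20 libraries were tested. Each library was poly(A) RNA from the heart ventricle of a male C57Bl/J6 mouse, and the control mice were littermates with a floxed Acsl1 gene. Tamoxifen was given to both genotypes, at 75 mg/kg on 4 days from an age of 6 to 8 weeks, so it does not separate the groups. Knockout rapamycin mice then had daily injections of 1 mg/kg rapamycin over 2 weeks, control mice had the solvent only, and ventricles were collected 2 weeks after tamoxifen. The labels name neither the Cre line that removed Acsl1 nor the cell type in which it is active. Genotype and drug both differ between these groups, so in this comparison alone their parts cannot be told apart. The other 10 libraries (knockout vehicle and control rapamycin, 5 each) shared the estimate of the spread and gave the single steps described at the end.

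Acsl1 encodes a long-chain acyl-CoA synthetase, which joins fatty acids to coenzyme A so that they can be burned. It is the main enzyme of its family in heart muscle, an organ that draws most of its energy from fatty acids. Rapamycin binds the protein FKBP12 and together they inhibit mTOR complex 1, a kinase that promotes protein synthesis and cell growth when amino acids and growth factors are plentiful. The series asks which early responses of the heart to a switch of fuel depend on mTOR. Only messenger RNA was measured here, and neither kinase activity nor protein was.

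The values are expression estimates scaled by the authors to an upper quartile of about 1000 per library, and a change is the difference in mean log2(value + 1), knockout rapamycin minus control vehicle. A gene passed the test when limma's p-value, adjusted over all 13548 genes by the Benjamini-Hochberg method, was under 0.05. Implied depth was 11.8 to 16.2 M reads per library in control vehicle and up to 20.3 M in knockout rapamycin libraries. Control vehicle 1 and 3 stood apart from the other 18 libraries, with scores of -73.4 and -84.6 on a first principal component (33.7% of the variance) where no other library lay below -19.3. In that pair long transcripts were low relative to short ones: the difference in their mean log2 level reached -1.11, while the 18 other libraries lay between -0.45 and 0.56. Myh6, the long and abundant message of the fast myosin heavy chain, shows the same split, at 194862 and 187373 in these control libraries and at 609546, 389059 and 690715 in control vehicle 2, 4 and 5. Changes are therefore also given without this pair.

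In the combined state 43 of 13548 genes passed the test, which is 0.317%. Of these, 26 were higher (0.192%) and 17 lower (0.125%). Their median change in size was 0.91 on the log2 scale, against 0.26 over all tested genes. At an unadjusted p under 0.05 there were 3318 genes (24.5%). The value ranges of the groups did not overlap in 427 tested genes (3.15%) and in 41 of the 43, and Ephb2 and Adcyap1r1 were the called genes that overlapped. All 43 differed in the same direction within each of the 4 sequencing pools, each of which held at least 1 library of both groups. For the 41 without overlap this had to be so, because each knockout rapamycin value lay on the same side of every control value. It is therefore no separate evidence. Without control vehicle 1 and 3, 4 genes passed (0.0295%): Acsl1, Esr1, A1cf and Dyrk1b. All 43 kept their sign and an unadjusted p under 0.05 there, a level that 892 genes (6.58%) reached, but 38 had a smaller change and the median size was 0.73. The libraries of that fit are among those on which the 43 were chosen, so this too is no separate evidence. With the long-minus-short difference as a covariate 49 genes passed, 20 of them among the 43. Single libraries moved the count: 6 genes passed when knockout rapamycin 2 was left out, 13 when it was knockout rapamycin 5 and 20 when it was knockout rapamycin 3. Among the controls, 8 passed when library 1 was left out, 12 when it was library 3, 138 when it was library 4 and 968 when it was library 5. Acsl1, Esr1, A1cf and Gpm6b were among the 5 genes called in all 10 of these fits.

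**Figure D1:**
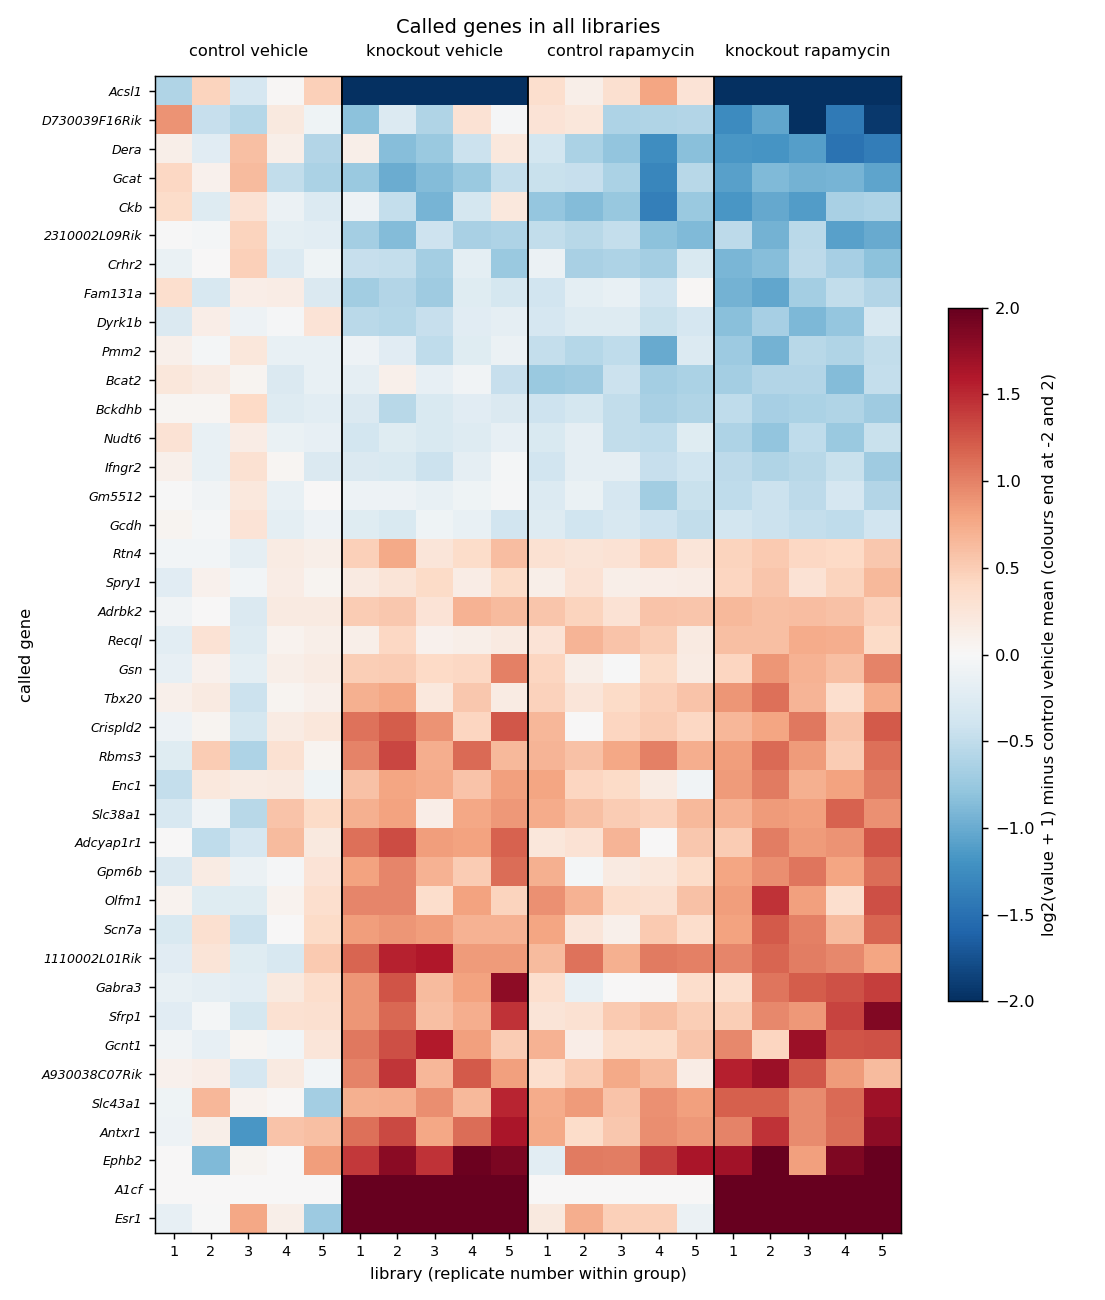
Colour shows log2(value + 1) of 40 of the 43 called genes (vertical axis) in every library (horizontal axis, replicate number within group) minus the control vehicle mean, with colours ending at -2 and 2. The 5 knockout rapamycin libraries at the right lie below the control vehicle mean for 16 of these genes and above it for 24, and control vehicle 3 has some of the strongest colours among the controls.

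The deleted gene came first, as a check of the labels. Acsl1 (Entrez 14081) had values of 6373, 13112, 7659, 9844 and 13431 in control vehicle libraries 1 to 5. In knockout rapamycin libraries 1 to 5 it had 1052, 1949.8, 948, 631 and 1539. Every knockout rapamycin library lay below every control library, and the lowest controls were libraries 1 and 3. The mean was 10084 ± 3166 in control vehicle and 1224 ± 520.4 in knockout rapamycin libraries (SD, n = 5 each), a ratio of 0.121. The fitted change of Acsl1 was -3.09 (limma SE 0.28, adjusted p = 3.37e-06) and the exact permutation test, two-sided, gave p = 0.00794, the smallest that 5 against 5 libraries allow. The change was -3.40 without control vehicle 1 and 3. The 4 other measured synthetases of the family did not pass: Acsl3 had a change of 0.63 (adjusted p = 0.212), Acsl4 0.23, Acsl5 -0.00 and Acsl6 -0.12, and those of Acsl5 and Acsl6 changed sign without control vehicle 1 and 3 (0.11 and 0.01).

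The genes with the largest increases, Esr1 and A1cf, were low or listed at 0 in control hearts. Esr1 (Entrez 13982), the gene of estrogen receptor alpha, had 125, 139, 239, 152 and 84.2 in control vehicle and 51952, 41812, 44962, 45000 and 42899 in knockout rapamycin libraries. It rose by 8.33 (SE 0.21, limma adjusted p = 1.65e-16). A part of this receptor is built into tamoxifen-inducible Cre proteins, and whether the reads came from the mouse gene or from such a fusion was not tested. A1cf (Entrez 69865), an RNA-binding partner of an editing enzyme, was listed at 0 in each control vehicle library. It had 27.5, 5.74, 17.2, 10.3 and 40.9 in knockout rapamycin libraries (limma adjusted p = 3.89e-05), and its fitted change of 4.13 depends on the pseudocount and is no bound. Every knockout rapamycin library lay above every control library for both genes.

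Ketone bodies are another fuel of the heart, and Bdh1, Oxct1, Acat1, Slc16a1 and Bdh2 of that pathway did not pass or share a direction. Bdh1, which interconverts the main ketone bodies, had 3174, 3001, 1645, 2386 and 2875 in control vehicle and 809.9, 803, 1895, 821 and 1991 in knockout rapamycin libraries. Knockout rapamycin 3 and 5 lay among the controls and the others below them, and the change was -1.15 (SE 0.34, limma adjusted p = 0.108). Oxct1, the enzyme that lets heart use ketone bodies, had a change of -0.09 and Acat1, a thiolase of the pathway, 0.25. The transporter Slc16a1 had -0.14 and Bdh2 had 0.18.

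Genes of fatty acid use stayed near the median of all genes. Of 27 genes of the carnitine shuttle and fatty acid oxidation, 16 were higher and 11 lower, none passed, and their median change was 0.09 (0.10 without control vehicle 1 and 3). Cpt1b, which carries fatty acids into mitochondria, had 19498, 21012, 24939.7, 17596 and 16658 in control vehicle and 21887, 21557, 22718, 18936 and 20169 in knockout rapamycin libraries, and the groups overlapped (change 0.09, SE 0.10, limma adjusted p = 0.569). The 30 PPAR targets, thioesterases and peroxisomal genes had a median of 0.07 (0.02 without control vehicle 1 and 3). Ppara, the gene of the fatty acid receptor PPAR alpha, had a change of 0.56 (adjusted p = 0.173) and 0.19 without control vehicle 1 and 3. Its coactivator Ppargc1a had 0.71 (adjusted p = 0.174) and 0.36. Pdk4, a kinase that keeps pyruvate out of oxidation, ranged from 11924 to 138099 in control vehicle and from 20043 to 126748 in knockout rapamycin libraries. Neither Pdk4 (change 0.39, adjusted p = 0.652) nor the uncoupling protein gene Ucp3 (0.26, adjusted p = 0.744) passed, and both changed sign without control vehicle 1 and 3 (-0.18 and -0.31).

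Genes of glucose use gave no call either. The 25 glycolysis genes had a median change of -0.24 (-0.14 without control vehicle 1 and 3), with 9 higher and 16 lower. Of the 25, 13 had an unadjusted limma p under 0.05 (52%, against 24.5% of all tested genes). Slc2a4, the insulin-responsive glucose transporter, had 21647, 18945, 27329.5, 14763 and 15453 in control vehicle and 12627, 12060.3, 16244, 14498 and 13039.8 in knockout rapamycin libraries. Control vehicle 3 had the highest value, the ranges overlapped, and the change was -0.49 (SE 0.15, limma adjusted p = 0.11). Slc2a1, the basal transporter, had -0.27 (adjusted p = 0.29). Hexokinase Hk2, the first step of glycolysis, had 0.38 (adjusted p = 0.268) and 0.05 without control vehicle 1 and 3. Pdk3, another pyruvate dehydrogenase kinase, lay just outside the threshold, with 67.1 to 102 in control vehicle, 118 to 182 in knockout rapamycin libraries and a change of 0.72 (adjusted p = 0.0537).

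**Figure D2:**
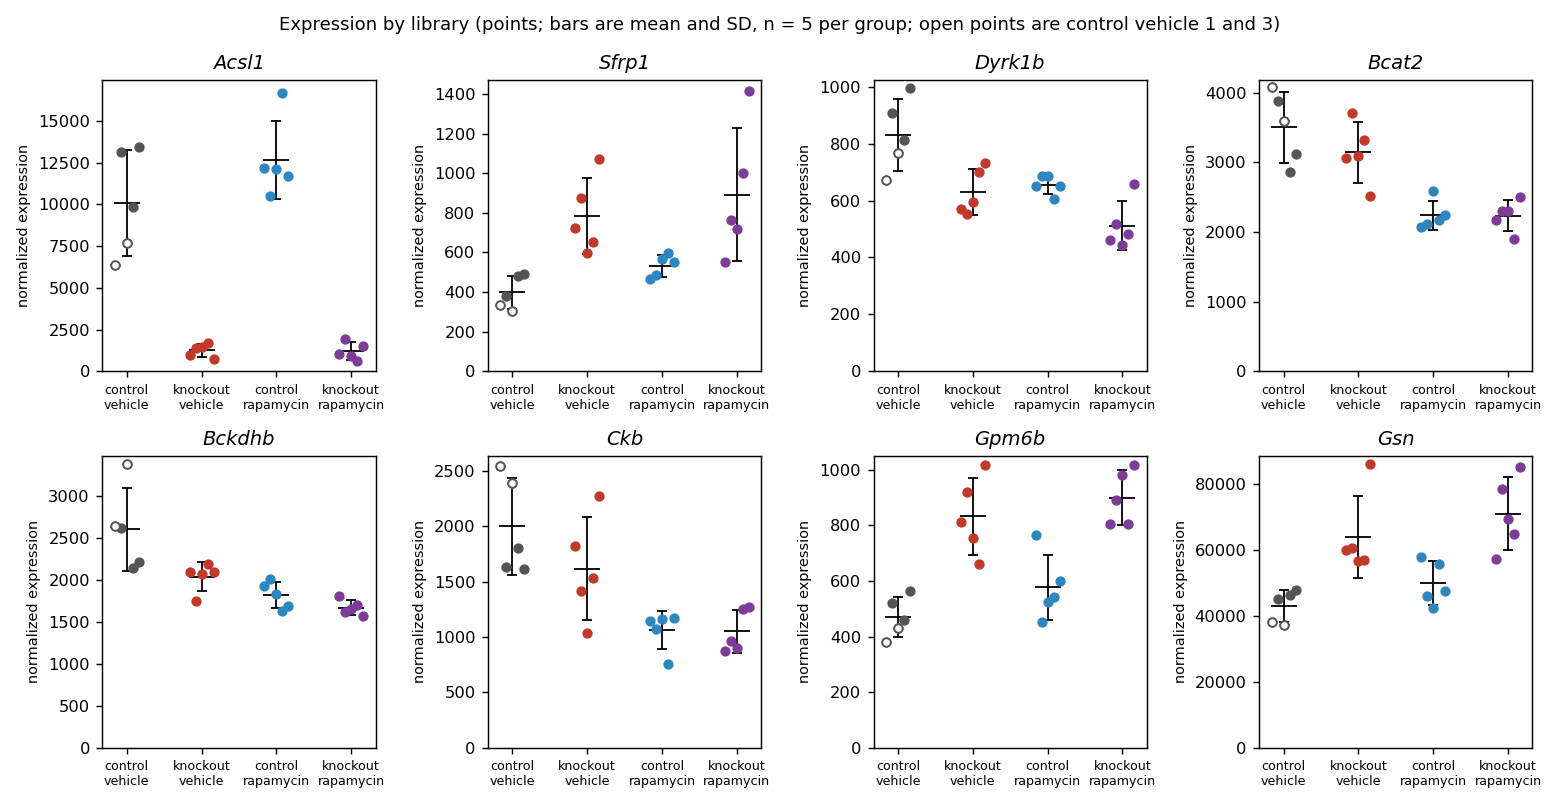
Each panel plots 1 gene, with normalized expression on the vertical axis and the 4 groups on the horizontal axis; points are libraries, bars are mean and SD (n = 5), and open points are control vehicle 1 and 3. Gpm6b runs from 379 to 563 in control vehicle and from 804 to 1017 in knockout rapamycin libraries, and Bcat2 from 2855 to 4078 and from 1897 to 2499.

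Among the genes that fell were enzymes that break down amino acids. Bcat2 encodes the mitochondrial aminotransferase that takes the first step of branched-chain amino acid breakdown. Bckdhb encodes a subunit of the branched-chain ketoacid dehydrogenase, which takes the committed step after it. Dyrk1b, a protein kinase of the DYRK family, was the 1 gene beside Acsl1, Esr1 and A1cf that also passed without control vehicle 1 and 3. The 250 bases before the first RefSeq start of these 3 genes are shown because they fell together and because a search of such windows is given below. They are from RefSeq with GRCm38.p6, plus strand, 5′ to 3′, at chr7:28179233-28179482 for Dyrk1b, chr9:83924887-83925136 for Bckdhb and chr7:45569903-45570152 for Bcat2. Capitals mark matches to the motifs searched:
Dyrk1b: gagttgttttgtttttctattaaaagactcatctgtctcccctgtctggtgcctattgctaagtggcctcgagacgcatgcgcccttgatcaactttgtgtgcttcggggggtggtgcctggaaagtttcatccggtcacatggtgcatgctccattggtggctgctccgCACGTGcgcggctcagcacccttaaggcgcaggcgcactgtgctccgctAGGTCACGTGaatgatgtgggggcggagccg
Bckdhb: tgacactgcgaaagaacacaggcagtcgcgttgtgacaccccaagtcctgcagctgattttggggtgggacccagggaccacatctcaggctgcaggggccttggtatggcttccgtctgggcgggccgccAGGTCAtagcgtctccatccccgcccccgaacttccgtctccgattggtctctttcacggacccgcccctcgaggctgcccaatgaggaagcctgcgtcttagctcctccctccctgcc
Bcat2: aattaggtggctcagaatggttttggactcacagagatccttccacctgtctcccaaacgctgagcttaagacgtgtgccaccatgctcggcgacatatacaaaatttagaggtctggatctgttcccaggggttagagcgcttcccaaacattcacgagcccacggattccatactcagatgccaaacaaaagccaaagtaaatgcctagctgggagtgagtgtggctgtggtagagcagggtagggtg

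The letters searched, on both strands, were CACGTG (E-box), TGATGNAA (ATF4 element), TCACNCCAC (sterol element) and AGGTCA (the core of nuclear receptor sites), the last chosen after the data were seen. Of 32851 RefSeq windows of 250 bases, 6.02% held CACGTG, 3.45% TGATGNAA, 1.05% TCACNCCAC and 14% AGGTCA. Counted from the start, the Dyrk1b window held CACGTG at -80 and -27 and AGGTCA at -31, where the latter pair overlaps. The Bckdhb window held AGGTCA at -119, and the Bcat2 window held none of the 4. Of the 43 called genes 32 had at least 1 window, and some had more than 1. CACGTG stood in a window of 4 of them (Dyrk1b, Slc43a1, 1110002L01Rik and Crispld2), AGGTCA in 2, TCACNCCAC in 1 (Acsl1) and TGATGNAA in 0. A match is a run of letters and not a measured binding site.

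Dyrk1b had 672, 906, 766, 812 and 996 in control vehicle libraries 1 to 5. It had 460.1, 516, 443, 483 and 657 in knockout rapamycin libraries 1 to 5, all of them below the lowest control. The mean went from 830.3 ± 125 to 512 ± 85.5 (SD, n = 5 each), and Dyrk1b fell by 0.70 (SE 0.12, limma adjusted p = 0.017). For this gene control vehicle 1 and 3 held the lowest control values, and without them the change was larger, at -0.83 (adjusted p = 0.0145). It was called in 8 of the 10 fits with 1 library left out and in 12 of 13 other settings, whose adjusted p ran from 0.00528 to 0.152.

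Bcat2 had 4078, 3878, 3596, 2855 and 3120.5 in control vehicle and 2175, 2307, 2309, 1897 and 2499 in knockout rapamycin libraries. No values overlapped, and Bcat2 fell by 0.64 (SE 0.12, limma adjusted p = 0.0205). Bckdhb had 2638, 2623, 3383, 2143 and 2213 in control vehicle and 1809.9, 1617, 1648, 1699 and 1566 in knockout rapamycin libraries. Here too the groups were apart, with control vehicle 3 the highest, and Bckdhb fell by 0.62 (SE 0.11, limma adjusted p = 0.017). Without control vehicle 1 and 3 the changes were -0.55 for Bcat2 and -0.48 for Bckdhb, and neither passed (adjusted p = 0.307 and 0.192).

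The whole pathway did not move as one. Of 20 tested genes of branched-chain amino acid breakdown 14 were lower and 6 higher, Bcat2 and Bckdhb were the 2 that passed (0.125% of all tested genes passed as lower), and the median change was -0.07 (-0.20 without control vehicle 1 and 3). The members ran from -0.67 for Mcee, an epimerase near the end of the valine and isoleucine branch (adjusted p = 0.107), to 0.37 for Mut, the mutase that follows it. Bckdha and Dbt, which encode other subunits of the dehydrogenase that holds Bckdhb, had 0.15 and 0.27. Bckdk, the kinase that switches this enzyme off, had -0.24 and Ppm1k, the phosphatase that switches it on, 0.13.

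A pair of further amino acid enzymes fell. Gcat, which splits a threonine product into glycine and acetyl-CoA in mitochondria, had 1118, 885, 1292, 593 and 536 in control vehicle and 393, 453, 435, 439.9 and 401 in knockout rapamycin libraries. Its control values were widely spread, with libraries 1 and 3 on top, while the knockout rapamycin values were tight. Gcat fell by 0.98 (SE 0.21, limma adjusted p = 0.0415), and without control vehicle 1 and 3 the change was -0.63. Gcdh, a glutaryl-CoA dehydrogenase of lysine and tryptophan breakdown, had 2042 to 2828 in control vehicle and 1632 to 1813 in knockout rapamycin libraries. Gcdh fell by 0.43 (SE 0.09, adjusted p = 0.0415; -0.32 without that pair).

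Enzymes of energy buffering and sugar metabolism formed the next group of lower genes. Ckb, the brain-type creatine kinase, which passes phosphate between ATP and creatine, had 2547, 1636, 2397, 1809 and 1619.7 in control vehicle and 877, 961, 900.3, 1254 and 1274 in knockout rapamycin libraries. Control vehicle 1 and 3 were again the highest, but all knockout rapamycin values lay below all controls, and Ckb fell by 0.92 (SE 0.19, limma adjusted p = 0.0415; -0.70 without control vehicle 1 and 3). Dera, an aldolase that breaks down deoxyribose phosphate, had 152, 119.7, 213, 152 and 92.9 in control vehicle and 62.0, 61.7, 65.3, 49.8 and 53.4 in knockout rapamycin libraries. It fell by 1.26 (SE 0.23, adjusted p = 0.0212). The change of Dera was -1.02 without control vehicle 1 and 3. Pmm2, which makes mannose 1-phosphate for protein glycosylation, had 711 to 926 in control vehicle and 412 to 559 in knockout rapamycin libraries, and fell by 0.66 (adjusted p = 0.0258; -0.55 without that pair).

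A pair of cell surface receptors also fell. Crhr2, the receptor of urocortins in heart, had 833, 918, 1274, 751 and 861 in control vehicle and 481, 505, 634, 577 and 518 in knockout rapamycin libraries, which did not overlap. It fell by 0.75 (SE 0.15, limma adjusted p = 0.0258; -0.64 without control vehicle 1 and 3). Ifngr2, a subunit of the interferon gamma receptor, had 5177 to 7847 in control vehicle and 3857 to 4658 in knockout rapamycin libraries, and fell by 0.57 (adjusted p = 0.0258; -0.43 without that pair). Of 40 tested interferon-induced genes, which respond to such receptors, 20 were higher and 20 lower, none passed, and the median change was -0.01.

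The remaining 5 lower genes are less well described. Nudt6, of the Nudix hydrolase family, went from 483 to 661 in control vehicle to 314 to 397 in knockout rapamycin libraries (change -0.62, limma adjusted p = 0.017). Fam131a went from 698 to 1103 to 428 to 620.3 (-0.75, adjusted p = 0.0258) and 2310002L09Rik from 2078 to 3281 to 1127 to 1678 (-0.82, adjusted p = 0.017). D730039F16Rik was lowly expressed, at 16.2 to 46.9 in control vehicle and 3.44 to 11.5 in knockout rapamycin libraries (-1.64, adjusted p = 0.0415). Gm5512 is a pseudogene that may share reads with its parent gene, so its change of -0.48 is uncertain. None of the 5 overlapped between the groups, and without control vehicle 1 and 3 their changes were -0.47 for Nudt6, -0.59 for Fam131a, -0.67 for 2310002L09Rik, -1.52 for D730039F16Rik and -0.40 for Gm5512.

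**Figure D3:**
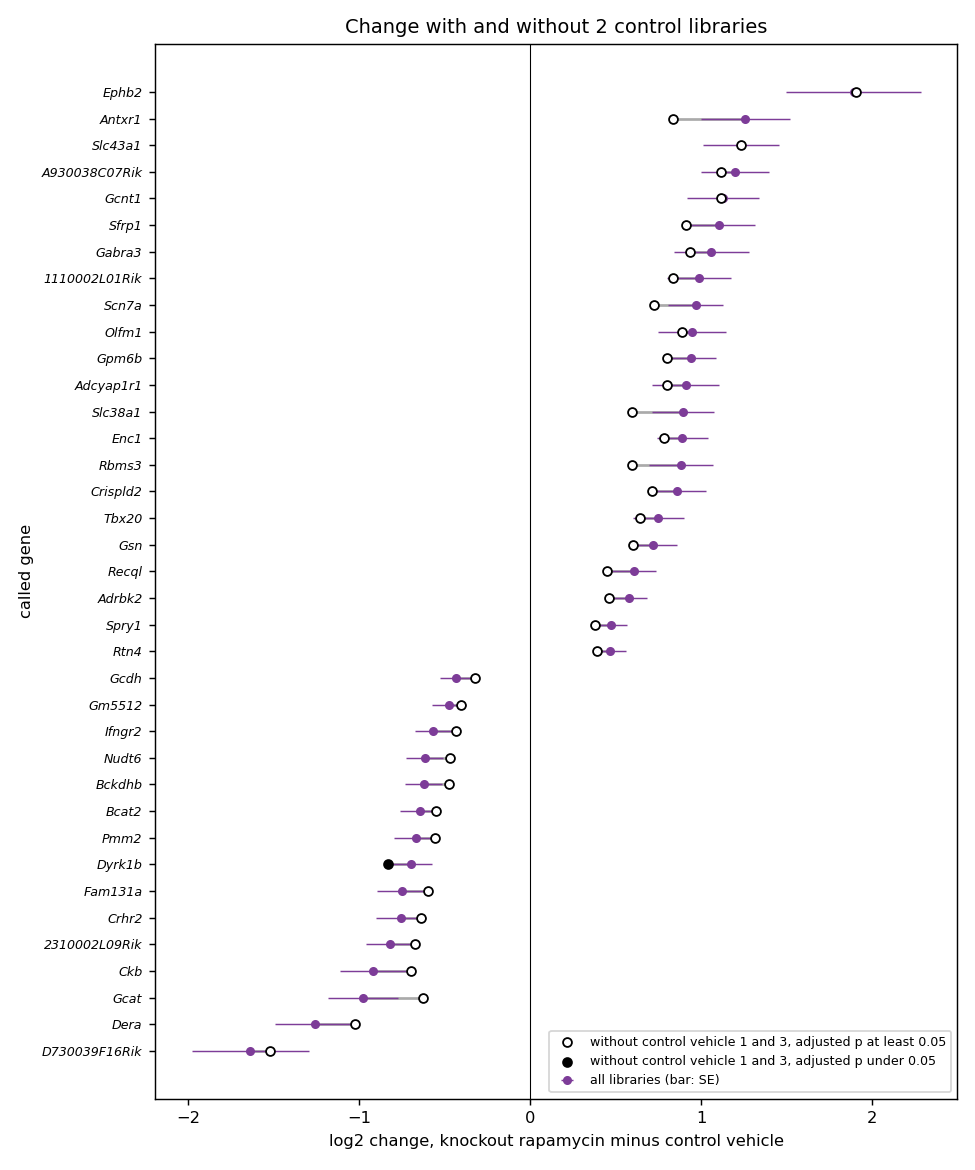
The horizontal axis gives the log2 change, knockout rapamycin minus control vehicle, of 37 called genes (vertical axis; Acsl1, Esr1 and A1cf, with larger changes, are left out) in all libraries (filled purple, bars SE) and without control vehicle 1 and 3 (open, or black where the adjusted p stayed under 0.05). Every gene stays on its side of 0, and Dyrk1b is the 1 black point.

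Among the genes that rose, several belong to fibroblasts and their matrix. Gsn, the actin-severing protein gelsolin and an abundant fibroblast message in heart, had 38192, 45208, 37167, 46308 and 47922 in control vehicle libraries 1 to 5. It had 57281, 78538, 69557, 64959 and 85127 in knockout rapamycin libraries 1 to 5. All knockout rapamycin values lay above all controls, and Gsn rose by 0.72 (SE 0.14, limma adjusted p = 0.0258; 0.60 without control vehicle 1 and 3). Sfrp1, a secreted antagonist of Wnt ligands, had 337, 383, 306, 483 and 489 in control vehicle and 551, 766, 718, 1002 and 1416 in knockout rapamycin libraries. It rose by 1.10 (SE 0.21, adjusted p = 0.0258), with knockout rapamycin 5 the highest. Its change was 0.91 without control vehicle 1 and 3 (adjusted p = 0.307). Antxr1, a collagen-binding receptor, had 189.7, 222, 90.5, 303 and 309 in control vehicle and 409, 561, 393, 445 and 709 in knockout rapamycin libraries. Antxr1 rose by 1.26 (SE 0.26, adjusted p = 0.0415). Its lowest value was that of control vehicle 3, and the change was 0.84 without control vehicle 1 and 3. Crispld2, a secreted protein of mesenchymal cells, had 956 to 1424 in control vehicle and 1806 to 2861 in knockout rapamycin libraries and rose by 0.86 (adjusted p = 0.0258; 0.71 without that pair).

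Matrix lists lay above the median of all genes, with few single calls. Of 42 matricellular and activated fibroblast genes 39 were higher, 22 had an unadjusted p under 0.05 (52.4%, against 24.5% of all tested genes) and Sfrp1 passed the test, as 0.317% of all genes did; their median change was 0.76, and 0.61 without control vehicle 1 and 3. Cilp, a matrix protein of activated fibroblasts, had 228, 177, 181, 483 and 261 in control vehicle and 664, 628, 955, 1426 and 3157 in knockout rapamycin libraries. No values overlapped, but the wide spread of the latter left a change of 2.18 with SE 0.50 at a limma adjusted p of 0.0537. Postn, periostin, had a change of 1.40 (adjusted p = 0.0649), and 1.10 without control vehicle 1 and 3. All 21 collagens were higher, none passed, and 5 had an unadjusted p under 0.05 (23.8%, against 24.5% of all tested genes). The median of the collagens was 0.61, which fell to 0.21 without that pair. Col8a1, a short-chain collagen, had 279, 296, 220.4, 523 and 429.6 in control vehicle and 529, 491, 689, 732 and 1207 in knockout rapamycin libraries, which overlapped (change 1.05, adjusted p = 0.0965). For 23 matrix proteases and inhibitors the median was 0.65 and 0.25 without the pair, and for 30 TGF-beta signalling genes 0.37 and 0.20. Across all tested genes 7473 of 13548 were higher and the median was 0.05 (0.02 without the pair).

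Markers of fibroblasts were higher as well. The summed level of 18 fibroblast markers was 78981 to 97046 in control vehicle and 108795 to 174354 in knockout rapamycin libraries (difference in mean log2 0.60; exact permutation test, two-sided, p = 0.00794, adjusted p = 0.0423 over 16 such measures). Gsn is on that list, and without it the ranges were 41239 to 50570.0 and 51514 to 89227 (0.47, exact permutation adjusted p = 0.0423). Both of these overlapping sums count among the 16 measures, which lowers the adjusted p. With either left out, the adjusted p of the other would not be under 0.05. The difference of all 18 was 0.50 without control vehicle 1 and 3. Of the 18, 16 were higher and 9 had an unadjusted p under 0.05 (50%, against 24.5% of all tested genes). Gsn was the member that passed, where 0.192% of all tested genes passed as higher. Dcn, decorin, had a change of 0.62 (limma adjusted p = 0.0514) and Pdgfra, the receptor that marks these cells, 1.07 (0.0537); both were chosen for the text after their values were seen. In ventricle tissue, more cells of a type and more RNA per cell cannot be told apart, and the part of the marker level in the matrix genes was not tested.

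Several genes that rose are best known from nerve cells and other excitable cells. Gpm6b, a membrane glycoprotein of neurons and glia, had 379, 522, 429, 459 and 563 in control vehicle and 804, 891, 979, 806 and 1017 in knockout rapamycin libraries. No knockout rapamycin value came near the controls, and Gpm6b rose by 0.94 (SE 0.15, limma adjusted p = 0.00697), in all 10 fits with 1 library left out. Enc1, an actin-binding adaptor named for the nervous system, had 199, 322, 309, 314 and 259.8 in control vehicle and 497, 569.6, 455, 483 and 570.5 in knockout rapamycin libraries. It rose by 0.89 (SE 0.15, adjusted p = 0.0149). Without control vehicle 1 and 3 the changes of Gpm6b and Enc1 were 0.80 and 0.78, each at an adjusted p of 0.144. Scn7a, an unusual sodium channel found in glia, had 357, 551, 327, 443 and 573 in control vehicle and 769, 1032, 885, 679 and 988 in knockout rapamycin libraries. Scn7a rose by 0.97 (SE 0.16, adjusted p = 0.0138; 0.73 without the pair).

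Other members of this group had lower levels. Olfm1, a secreted olfactomedin of brain, had 88.2 to 132 in control vehicle libraries, all knockout rapamycin values lay above these, up to 284, and it rose by 0.95 (limma adjusted p = 0.0415). Gabra3, a GABA receptor subunit, had 53.4 to 79.8 and 79.9 to 165, with the highest control and the lowest knockout rapamycin library almost level, and rose by 1.06 (adjusted p = 0.0415). Adcyap1r1, the receptor of the peptide PACAP, had 86.3 to 191 and 175 to 295, which overlapped, and rose by 0.91 (adjusted p = 0.045). Ephb2, a receptor of ephrins that guides axons and vessels, had 1.96 to 8.71 and 8.59 to 31.8 and rose by 1.89 (adjusted p = 0.0415), at values near the low limit of the test. A930038C07Rik, an older symbol of Ndnf, a secreted factor first described in neurons, had 78.1, 80.4, 58.0, 83.5 and 71.1 in control vehicle and 219, 242, 175, 134 and 115 in knockout rapamycin libraries, and rose by 1.20 (SE 0.20, adjusted p = 0.0138). Without control vehicle 1 and 3 the changes were 0.89 for Olfm1, 0.94 for Gabra3, 0.80 for Adcyap1r1, 1.91 for Ephb2 and 1.11 for A930038C07Rik, none past the test. The summed level of nerve and glia transcripts was 2702 to 3092 in control vehicle and 2979 to 4207 in knockout rapamycin libraries (0.30 on the log2 scale; exact permutation test, p = 0.0238, adjusted p = 0.0952). Of 15 such transcripts 14 were higher and 3 had an unadjusted p under 0.05 (20%, against 24.5% of all tested genes). Scn7a was the member that passed, where 0.192% of all tested genes passed as higher. The part of nerve tissue in these genes was not tested.

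Of the transport and signalling genes that rose, Slc38a1 encodes a glutamine transporter. It had 286, 339, 241, 529 and 466 in control vehicle and 579.9, 646, 627, 806 and 675 in knockout rapamycin libraries, and rose by 0.89 (SE 0.18, limma adjusted p = 0.0398). Control vehicle 1 and 3 were the lowest, and without them the change was 0.60. Slc43a1, a transporter of branched-chain and other large neutral amino acids, had 29.0, 49.0, 32.5, 31.3 and 18.9 in control vehicle and 71.6, 71.7, 60.1, 68.7 and 102 in knockout rapamycin libraries. It rose by 1.23 (SE 0.22, adjusted p = 0.017), with the same change without that pair. Slc1a5, another glutamine transporter, lay just outside the threshold with a change of 0.68 (adjusted p = 0.0537).

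Tbx20, a transcription factor needed by adult heart muscle, had 1188, 1252, 819, 1148 and 1181 in control vehicle and 2048, 2382, 1777, 1393 and 1839.8 in knockout rapamycin libraries. It rose by 0.75 (SE 0.15, limma adjusted p = 0.0334). Of 17 cardiac transcription factors it was the 1 to pass, where 0.192% of all tested genes passed as higher. At an unadjusted p under 0.05 there were 4 of the 17 (23.5%, against 24.5% of all tested genes). The median of the 17 was 0.25 (0.09 without control vehicle 1 and 3). Adrbk2, an older symbol of Grk3, a kinase that desensitizes receptors, had 397 to 549.9 and 667 to 766 and rose by 0.58 (adjusted p = 0.017). Spry1, a brake on growth factor signalling, had 681 to 887 and 979 to 1257 and rose by 0.48 (adjusted p = 0.0258). Rtn4, a reticulon of the endoplasmic reticulum, rose by 0.47 (adjusted p = 0.0415). Gcnt1, an enzyme that branches glycans, had 64.7 to 85.6 and 97.6 to 239 and rose by 1.13 (adjusted p = 0.0258). Recql, a DNA helicase, rose by 0.61, Rbms3, an RNA-binding protein, by 0.88, and the noncoding RNA 1110002L01Rik by 0.99 (adjusted p = 0.0415, 0.0438 and 0.0258). With control vehicle 1 and 3 left out these changes were 0.64 for Tbx20, 0.46 for Adrbk2, 0.38 for Spry1, 0.39 for Rtn4, 1.12 for Gcnt1, 0.45 for Recql, 0.60 for Rbms3 and 0.83 for 1110002L01Rik, none past the test.

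Genes of the mTOR pathway itself gave no call. Of 47 tested members 19 were higher and 28 lower, 11 had an unadjusted p under 0.05 (23.4%, against 24.5% of all tested genes), and the median change was -0.09 (-0.07 without control vehicle 1 and 3). Mtor, the kinase, had 761, 1758, 735, 1331 and 2208 in control vehicle and 1818, 1887, 1684, 1318 and 2015 in knockout rapamycin libraries. Control vehicle 1 and 3 had the 2 lowest values, and the change of 0.48 (SE 0.25, limma adjusted p = 0.227) was -0.00 without them. Rps6kb1, the S6 kinase, had 0.50 (adjusted p = 0.17) and Eif4ebp1, the translation repressor that mTOR switches off, -0.39 (adjusted p = 0.193). Ddit4, a stress-induced inhibitor of mTOR complex 1, ranged from 692 to 5199.5 in control vehicle and from 945 to 1555 in knockout rapamycin libraries (change -0.51, adjusted p = 0.575). Its relative Ddit4l had 58.9 to 144 and 31.6 to 51.5, which did not overlap (-0.95, adjusted p = 0.0701). Of 29 insulin, IGF and Akt signalling genes none passed, and their median of 0.23 was 0.02 without the pair.

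Amino acid stress genes, which the factor ATF4 drives and mTOR complex 1 is known to promote, did not pass either. The 38 tested targets had a median change of 0.08 (0.13 without control vehicle 1 and 3), with 23 higher and 15 lower. Chac1, which breaks down glutathione, had 397, 400.2, 631, 301 and 435 in control vehicle and 149, 244, 211, 265 and 208 in knockout rapamycin libraries. No values overlapped, and its change of -0.99 (SE 0.24) had a limma adjusted p of 0.0595. Mthfd2, an enzyme of mitochondrial folate metabolism, had 40.2, 33.3, 41.8, 53.7 and 34.8 in control vehicle and 63.4, 51.6, 72.2, 94.5 and 101 in knockout rapamycin libraries. These overlapped by 1 library on each side, with a change of 0.87 (SE 0.27, adjusted p = 0.111). The 24 cholesterol genes under SREBP2, another branch below mTOR, had a median of -0.14 (-0.03 without the pair), and the 52 lysosome and autophagy genes one of -0.08 (-0.01).

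Some lists of the protein-making and energy machinery lay low, but much less so without control vehicle 1 and 3. Others did not: 38 ribosome biogenesis genes had a median of 0.01, with 21 higher and 17 lower. The 46 translation factors had -0.11 (0.05 without the pair), with 19 higher and 27 lower. All 74 mitochondrial ribosomal protein genes were lower, 50 at an unadjusted p under 0.05 (67.6%, against 24.5% of all tested genes) and none past the test, with a median change of -0.39 that was -0.13 without that pair. Of 79 oxidative phosphorylation subunits 76 were lower and 41 had an unadjusted p under 0.05 (51.9%), and the median went from -0.44 to -0.12. The 31 proteasome subunits, 19 of them at an unadjusted p under 0.05 (61.3%), went from -0.36 to -0.10. The 79 cytosolic ribosomal protein genes went from -0.31 to 0.07, across 0. Of these 79 genes only 2 had an unadjusted p under 0.05 (2.53%). The member with the smallest p was Mrpl37 in the mitochondrial ribosomal list, with a change of -0.58 (limma adjusted p = 0.0572) and -0.34 without the pair, and in the oxidative phosphorylation list Ndufs4, of complex I, with -0.55 (0.109) and -0.28. Rpl4, a protein of the large ribosomal subunit, had 10589, 10213, 10954, 11931 and 11653 in control vehicle and 14804, 13737, 12923, 15012 and 12698 in knockout rapamycin libraries. Its change was 0.32 (SE 0.09, limma adjusted p = 0.0821), and 0.30 without the pair. The median of its list had the other sign in all libraries and the same sign without the pair. Ribosomal protein genes share reads with near-identical pseudogenes, so the split of reads among copies is uncertain.

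**Figure D4:**
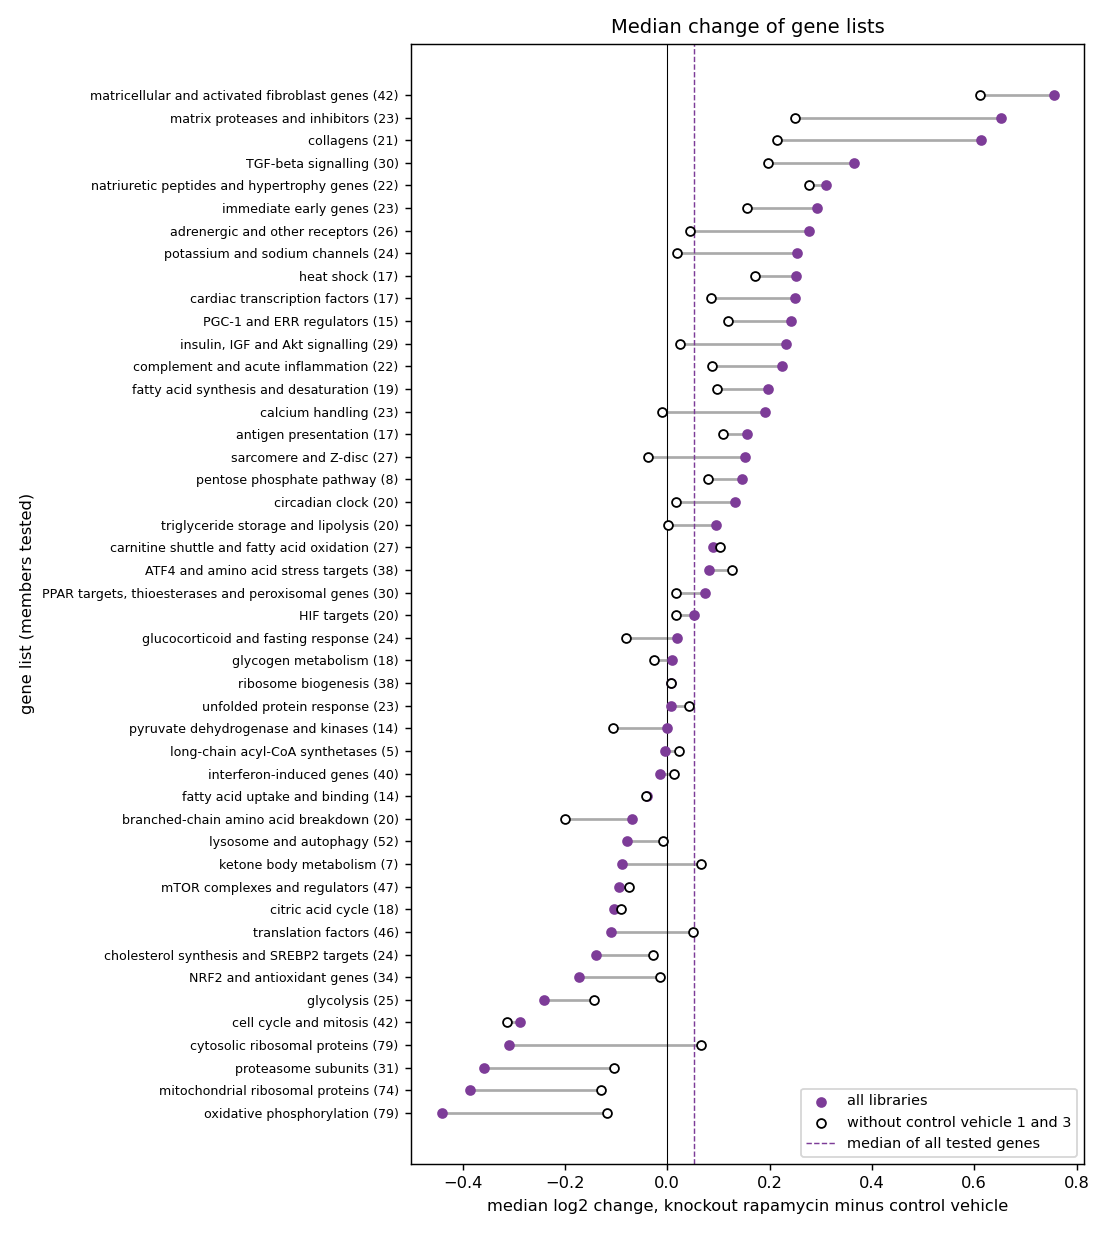
The horizontal axis gives the median log2 change, knockout rapamycin minus control vehicle, of the members of each gene list (vertical axis, members tested in parentheses), in all libraries (filled) and without control vehicle 1 and 3 (open); the dashed line is the median of all tested genes, 0.05. Matricellular genes stay at 0.61 without the pair, while oxidative phosphorylation moves from -0.44 to -0.12 and cytosolic ribosomal proteins cross 0.

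Stress genes of heart muscle gave no call, and some varied widely between libraries of 1 group. Nppa, the atrial natriuretic peptide, had 5899.6, 1295, 3049, 3438 and 1334 in control vehicle and 5733, 34858, 8510.3, 10842 and 5941 in knockout rapamycin libraries. Knockout rapamycin 2 stood far above the rest, and the change was 2.00 (SE 0.68, limma adjusted p = 0.133). Nppb, the ventricular natriuretic peptide, had 21192, 765, 2548, 4626 and 904 in control vehicle and 7851, 3775, 5177, 5258 and 5257 in knockout rapamycin libraries. Its highest value was that of control vehicle 1, and its change was 0.92 (SE 0.74, adjusted p = 0.408). The ratio of the arithmetic means of Nppb was 0.91, the other way from its log2 change. Myh7, the slow myosin heavy chain that marks hypertrophy in mouse, had 7235, 17422, 6265, 21139 and 20787 in control vehicle and 29415, 26268, 21455, 22567 and 38158 in knockout rapamycin libraries. It did not overlap, but its change of 1.07 (SE 0.29, adjusted p = 0.0884) was 0.45 without control vehicle 1 and 3. Acta1, skeletal actin, had a change of -0.96 (adjusted p = 0.333) and Myh6 0.72 (0.19), which was 0.12 without that pair. Ankrd1, a stretch-responsive protein, had 4016 to 12744 in control vehicle and 14503 to 18912 in knockout rapamycin libraries (1.12, adjusted p = 0.0877; 0.87 without the pair). Of 22 natriuretic and hypertrophy genes 18 were higher and none passed.

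Atrial messages, of which Nppa is one, differed in their sum between the groups as well. The summed level of atrial and conduction markers was 7670.4 to 11586 in control vehicle and 15510.3 to 74072 in knockout rapamycin libraries (1.27 on the log2 scale; exact permutation test, p = 0.00794, adjusted p = 0.0423). That adjusted p is under 0.05 only because the fibroblast sum is counted both with and without Gsn. Nppa belongs to the atrial sum and made up much of it, with 8510 of 15510 in knockout rapamycin 3 and 10842 of 17558 in knockout rapamycin 4. In control vehicle 4, the control with the highest sum, it made up 3438 of 11586. With Nppa taken off, the sums of knockout rapamycin 3 and 4 lay below that of control vehicle 4, so the groups overlapped. The full separation of the atrial sums thus depends on Nppa, and no test was run without it. Of the 18 tested markers 17 were higher and none passed the test. At an unadjusted p under 0.05 there were 4 (22.2%, against 24.5% of all tested genes). Myl7, the atrial light chain, had 35.7, 7.85, 27.8, 356 and 17.4 in control vehicle and 1211, 10265, 85.9, 25.8 and 884 in knockout rapamycin libraries. Knockout rapamycin 3 and 4 lay within the control range for Myl7, and no library of these groups was at 0. Sln, sarcolipin, another atrial message, had 1.45 to 52.2 and 10.3 to 2542. With the atrial level as a covariate 10 genes passed, 9 of them among the 43. The part of atrial tissue in the natriuretic change was not tested.

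Markers of the remaining cell types gave no difference past the test. Summed cardiomyocyte markers, among them Tnnt2, Ttn and Ryr2, were at 2272800 ± 130171 in control vehicle and 2144430 ± 120590 in knockout rapamycin libraries (-0.08 on the log2 scale, exact permutation p = 0.167), so the labelled tissue carried its defining messages throughout. Endothelial (0.04), smooth muscle and pericyte (0.01) and macrophage (-0.04) sums were close to level. Erythroid transcripts had a difference of -0.98 (exact permutation p = 0.0397, adjusted p = 0.127), and -0.55 without control vehicle 1 and 3, which held the highest sums. Skeletal muscle isoforms had -0.47 (exact permutation p = 0.0476, adjusted p = 0.127) and -0.25. Epicardial and mesothelial markers had 0.94 (exact permutation p = 0.0873, adjusted p = 0.2) and 0.46, while the median change of their 9 tested genes was -0.48. Summed adipocyte markers had 0.24 (exact permutation p = 0.159) and 0.33, while the median change of their 9 tested genes was 1.18. The 42 cell cycle genes had a median change of -0.29 (-0.31 without the pair), with 31 lower and none called.

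The combined change can be split into steps with the other 10 libraries. Going from control vehicle to knockout vehicle and then to knockout rapamycin, the first step was the larger for 33 of the 43 genes and the second for 10. For the 26 higher genes the medians of the steps were 0.94 and 0.13, and for the 17 lower genes -0.34 and -0.32. The knockout step was the larger for 24 of the 26 higher genes. Of the 17 lower genes it was the larger for 9 and the rapamycin step for 8, and single genes divided unevenly: the steps were -0.76 and -0.21 for Gcat, and -0.28 and -1.35 for D730039F16Rik. These genes were chosen on the combined change, whose groups enter the steps, so the split is a description. Only the first step has control vehicle, with the pair of libraries that stood apart, as its baseline. Of all tested genes 4315 (31.8%) had an unadjusted limma p under 0.05 for the first step and 774 (5.71%) for the second. The steps are not given without that pair. Whether a larger first step is more common among the 43 genes than among all tested genes was not tested. By the other path, through control rapamycin, the medians were 0.43 and 0.55 for the higher genes and -0.48 and -0.27 for the lower.

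Single genes differed in how the steps added up. Gpm6b had means of 471 in control vehicle, 832 in knockout vehicle, 577 in control rapamycin and 899.5 in knockout rapamycin libraries, so it was high wherever Acsl1 was lost. Bcat2 had 3506, 3143, 2239 and 2237 in the same order, and Ckb 2002, 1617, 1062 and 1053, so that both were low wherever rapamycin was given. The single steps of Bcat2 and Ckb did not pass (limma adjusted p of 0.189 to 0.462 for the knockout and the following rapamycin step). Rapamycin in control hearts did not pass either, at a limma adjusted p of 0.225 for each of these genes. The knockout step of Gpm6b passed under vehicle (limma adjusted p = 0.0177) but not under rapamycin (0.474). Dyrk1b had 830.3, 629.8, 656 and 512, with each path made of steps between -0.30 and -0.39. Bckdhb had 2600.1, 2037, 1819 and 1668.

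**Figure D5:**
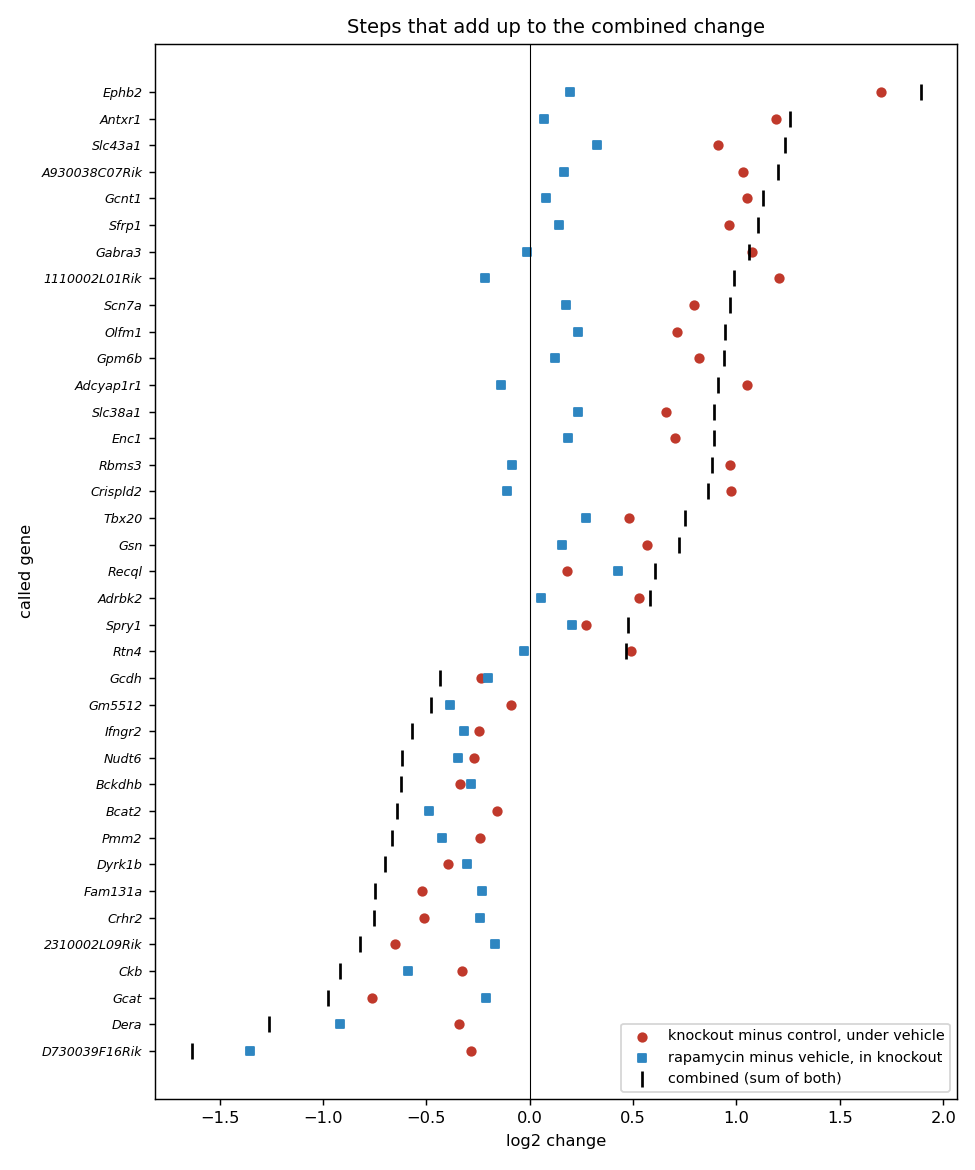
The horizontal axis gives log2 changes of 37 called genes (vertical axis; Acsl1, Esr1 and A1cf are left out): knockout minus control under vehicle (red circles), rapamycin minus vehicle in knockout hearts (blue squares) and their sum, the combined change (black bars). For most higher genes the circles lie nearer the bars than the squares do, but Recql has the reverse order and Spry1 has steps of 0.27 and 0.20; for the lower genes both steps lie below 0.

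The interaction asks whether the combined change differs from the sum of the knockout change under vehicle and the rapamycin change in control hearts. No gene passed (0 of 13548 by limma), in the main setting or in any other setting tried, while 1124 genes (8.3%) had an unadjusted p under 0.05, a number that ran from 482 to 2402 over those settings. For single changes the test called 33 genes (0.244%) for the knockout under vehicle, 3 (0.0221%) for the knockout under rapamycin, 1 (0.00738%) for rapamycin in knockout hearts and 0 for rapamycin in control hearts. At an unadjusted p under 0.05 the corresponding numbers were 4315 (31.8%), 403 (2.97%), 774 (5.71%) and 2024 (14.9%). Of the 43 genes 7 had an interaction p under 0.05 before adjustment. They were 1110002L01Rik (limma interaction -1.11, unadjusted p = 0.000426), Rbms3 (-0.84), Adrbk2 (-0.43), Rtn4 (-0.34) and Crispld2 (-0.52) among the higher genes and 2310002L09Rik (0.47) and D730039F16Rik (-1.09) among the lower. In 6 of these the combined change was smaller than the sum of the single changes, and in D730039F16Rik it was larger.

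For the collagens the medians of the single changes were 0.97 for the knockout under vehicle and 0.65 for rapamycin in control hearts, while the combined median was 0.61. The median of the sums over collagen genes was 1.63 and that of the interaction -0.91 (-0.59 without control vehicle 1 and 3), against -0.09 and -0.05 over all tested genes. The control vehicle libraries are the baseline of both single changes and so enter the sum in each of its terms. The matricellular list had 0.90, 0.43 and a combined 0.76, with an interaction of -0.62 (-0.40). The cytosolic ribosomal list had -0.51, -0.24 and a combined -0.31, with an interaction of 0.47 (0.12). None of these list values carries a test of its own.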

How the data were processed

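The deposited signal of a gene is an RSEM estimate that the authors scaled to a common upper quartile, which lay between 996.6 and 1000 in each library. Reads were set against mouse build mm9 with Picard 1.64, SAMtools and RSEM, per the submitters' processing notes; an aligner is not given in the sources used here. These values are not counts. Between 86.6% and 88.2% of low values were whole multiples of 1 step per library within 0.05, a share too low to recover reads, and the step gave the implied depth of 11.5 to 21.1 M reads per library.

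A linear model of log2(value + 1) held all 20 libraries, with 4 group means. It was fitted by limma 3.58.1 (R 4.3.3), whose prior variance followed an intensity trend. The pseudocount of 1 understates changes of genes near 0. Two-sided p-values were adjusted over 13548 genes (Benjamini-Hochberg), and the script was tested on simulated data. Replicates are biological, per the submitters' design text. Summed marker levels were compared with exact permutation tests over the 10 libraries. Of 21705 genes, 21562 had an identifier in the RefSeq table of GRCm38.p6, and 1529 of 1540 list entries matched. Older symbols are printed as the file gives them.

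The groups, the 59 gene lists, the tests and the alternatives were chosen with earlier results of these data known. The genes named were 30 fixed heart and metabolism genes, the called genes with the largest changes, at most 15 per direction, among those with a mean of at least 100 and no overlap, genes called in each fit with 1 library left out, and the called members of each list (or its 1 member with the smallest p). Other called genes were added, and 3 of the 43 are not reported here. Alternatives were pseudocounts of 0.5 and 10, no filter, a mean of at least 100, quantile and median-ratio scaling, a pool term, a replicate block, only the 2 groups compared, array weights, covariates for the long-minus-short score and the atrial level, no control vehicle 1 and 3, and leaving out each library.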

Additional observations from a re-analysis of the deposited data

Results flagged for a closer look

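In 215 gene and group combinations of 5 libraries, 18 held a library whose gap to the nearest other was more than 0.71 of the group's range, 10 in control vehicle and 8 in knockout rapamycin. Chance gives about 1 in 20. Control vehicle 3, of the pair that stood apart, was far from the other 4 in Tbx20 (819, others from 1148), 2310002L09Rik (3281, others to 2391), the sterol regulator gene Insig1 (1327, others to 857), the acetyl-CoA synthetase Acss2 (1881, others to 1298) and the oxygen sensor Egln2 (1861, others to 1432). Control vehicle 1, the other of the pair, stood out in Nppb (21192, others to 4626) and in the B cell marker Ms4a1 (22.3, others to 5.96).

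Other control libraries far from the rest were control vehicle 5 in Pdk4 (138099, others to 45987) and control vehicle 4 in Cilp (483, others to 261) and in Rpe, an epimerase of the pentose phosphate pathway (308, others to 241).

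Among the knockout rapamycin libraries, library 2 was high in Nppa (34858, others to 10842), where its Myl7 value of 10265 was also the highest of the group. Library 3 was high in catalase, Cat (8216, others to 6910.5), and the immunoproteasome subunit Psmb10 (1356, others to 1067). Library 4 was low in Ppara (2399, others from 2873) and Acsl3 (71.9, others from 147) and high in the haemoglobin message Beta-s (45407, others to 17348). Library 5 was high in the collagen Col16a1 (412.5, others to 211) and the stress-induced factor Atf3 (639, others to 227).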

How the results depend on the processing

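The count of 43 called genes (26 higher, 17 lower) was 68 with a mean of at least 100, 68 after quantile normalization (31 higher, 37 lower), 74 after median-ratio rescaling (37 and 37), 17 with a pool term, 21 with array weights, 10 with the atrial level as a covariate, 5 with only the 2 groups compared, 4 without control vehicle 1 and 3, and 6 to 968 with 1 library left out; the cause was not tested. It was 37 to 51 in the other 4 settings, but the 49 with the long-minus-short covariate shared only 20 with the 43. The change of Acsl1 kept its direction and its call in all 23 settings. With a replicate block the count was 86 (60 higher, 26 lower), 41 of them among the 43. The numbers do not pair the samples: control and knockout rapamycin libraries of the same number had deviations correlated at -0.03, 0.12, 0.28, -0.21 and 0.43, and 1 of the 5, number 5, correlated best with its own number.

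Over 23 settings the named genes gave 2101 values with an unchanged call, 280 that lost and 52 that gained it, and 20 in 6 uncalled genes that changed sign. Pdk4 became -0.18 with array weights and -0.18 without control vehicle 1 and 3, and ran from -0.028 to 0.85 with 1 library left out. Ucp3 became -0.00025 with a pool term, -0.27 with array weights, -0.058 with the long-minus-short covariate and -0.31 without the pair, and ran from -0.046 to 0.62. Acsl5 became 0.039, 0.021, 0.14 and 0.11 in the same settings and ran from -0.10 to 0.081. Hk2 became -0.055 and Mtor -0.057 with that covariate, Mtor -0.0017 and Acsl6 0.0080 without the pair. Of the list medians 57 values moved by more than the spread and 1299 did not; 20 of those that moved were with the long-minus-short covariate and 16 without the pair. Depth limits genes near the minimum of 10, such as Ephb2 and A1cf, where a value holds few reads.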

Other observations

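Lists of stress and signalling that held no called gene had medians on both sides of 0. The 17 heat shock genes had a median change of 0.25 (0.17 without control vehicle 1 and 3), with 15 higher. The chaperone Hsp90aa1 had 935 to 2955 in control vehicle and 2596 to 4507 in knockout rapamycin libraries, which overlapped (change 0.89, limma adjusted p = 0.107). The 34 NRF2 and antioxidant genes had a median of -0.17 (-0.01), while catalase, Cat, had 4775 to 6382 in control vehicle and 6581 to 8216 in knockout rapamycin libraries (0.37, adjusted p = 0.118). The 23 unfolded protein response genes tested had a median of 0.01 (0.04), the 20 circadian clock genes 0.13 (0.02) and the 24 glucocorticoid and fasting genes 0.02 (-0.08).

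Channel and matrix inhibitor genes came closer to the threshold. Kcnt2, a sodium-activated potassium channel, had 13.4, 31.4, 30.2, 22.4 and 34.8 in control vehicle and 51.0, 68.9, 51.5, 43.0 and 65.9 in knockout rapamycin libraries, which did not overlap (change 1.11, SE 0.26, limma adjusted p = 0.0572; 0.90 without control vehicle 1 and 3). The 24 potassium and sodium channels had a median of 0.25 (0.02). Timp2, an inhibitor of matrix proteases, had 2768 to 3636 in control vehicle and 4061 to 5914 in knockout rapamycin libraries (0.54, adjusted p = 0.0572; 0.42 without that pair). Ccr2, the receptor of recruited monocytes, had 41.0 to 95.7 and 83.1 to 186, which overlapped (1.12, adjusted p = 0.0649), while the 19 macrophage and monocyte markers had a median of 0.08 (0.03).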
